A study of Homo sapiens with 12 samples.

Results

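The AP-1 and EGR immediate early transcription factors are described here through 10 genes, FOS, FOSB, FOSL1, FOSL2, JUN, JUNB, JUND, EGR1, EGR2 and EGR3, chosen by gene symbol. They are 10 of the 20652 genes listed in either of 2 tables of RNA sequencing values from IMR5, a MYCN-amplified human neuroblastoma cell line. All 10 are in the selinexor table, and 9 are in the knockdown table, where EGR2 is not listed. Cells of the selinexor group were grown for 24 h with selinexor at 100 nM, a compound that blocks cargo binding by XPO1, which carries proteins and some RNAs out of the nucleus. Their controls received DMSO. Cells in the other experiment were nucleofected with an siRNA against XPO1 (number 10) or with a control siRNA, and RNA was taken at 72 h. Each of the 4 groups had 3 libraries, and all 12 came from this 1 cell line. Nothing in the labels says whether replicates were separate cultures, so the p-values measure the spread between libraries, which may be technical.

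AP-1 is a dimer of basic leucine zipper proteins. Jun proteins can pair with each other, whereas Fos proteins need a Jun partner, and the dimers bind the sequence TGACTCA and close variants of it. The EGR proteins are zinc finger factors that bind GC-rich DNA, and the co-repressors NAB1 and NAB2 bind to EGR1 and hold it back. Most of these genes are immediate early genes: growth factors, stress or calcium entry switch them on within minutes, through MAP kinases acting on the factors SRF, ELK1 and CREB1 that already sit on their promoters, and their mRNAs decay fast. JUND is the steadily expressed exception. In neuroblastoma cells FOSL1 and FOSL2 are counted among the factors of the mesenchymal state, and IMR5 is commonly placed in the adrenergic state.

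The depth estimated from the steps of the low values was 26.9 to 33.8 M reads with selinexor, 39.5 to 40.9 M with DMSO, 33.5 to 55.8 M with XPO1 siRNA and 40.6 to 54.0 M with control siRNA. XPO1 itself averaged 4344 ± 74.0 with XPO1 siRNA and 18809 ± 210 with control siRNA (SD, n = 3 each), and 19741 ± 3697 with selinexor and 18380 ± 507 with DMSO; it fell by 2.11 on the log2 scale after knockdown (limma adjusted p = 2.91e-14) and was at 0.09 with selinexor (adjusted p = 0.623; without selinexor replicate 1 it was called higher, at 0.25, adjusted p = 0.00112). Values are normalized reads: each library's gene counts after the authors' scaling by its size factor. Selinexor replicate 1 stood apart: its log2 values correlated at 0.972 and 0.973 with those of replicates 2 and 3, which correlated at 0.987 with each other. In that library the 557 tested genes with a transcript GC content of 65% or more lay a median 0.72 log2 units above their DMSO mean, against 0.22 and 0.24 in selinexor replicates 2 and 3. Calls of members that change when it is left out are given both ways.

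The promoters of EGR1, FOS and FOSB, which rose most with selinexor, and of FOSL2 and JUN, which moved little there, are printed. They show which response elements lie in the last 250 bases before the start. Each line holds the 250 bases before the RefSeq transcription start (build GRCh38.p14), 5′ to 3′ on the gene's own strand. Capitals mark motifs found on either strand: TGACGT or its reverse complement, the core of the site bound by CREB1; the CArG box bound by SRF; GCGNGGGCG, the site of EGR1 itself; and TGACATCA, the AP-1-like site of JUN.
EGR1: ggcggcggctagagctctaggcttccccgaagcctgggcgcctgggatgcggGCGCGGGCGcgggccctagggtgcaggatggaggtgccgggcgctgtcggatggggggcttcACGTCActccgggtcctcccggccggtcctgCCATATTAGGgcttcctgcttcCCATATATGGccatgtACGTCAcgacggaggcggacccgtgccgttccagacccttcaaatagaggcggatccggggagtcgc
FOS: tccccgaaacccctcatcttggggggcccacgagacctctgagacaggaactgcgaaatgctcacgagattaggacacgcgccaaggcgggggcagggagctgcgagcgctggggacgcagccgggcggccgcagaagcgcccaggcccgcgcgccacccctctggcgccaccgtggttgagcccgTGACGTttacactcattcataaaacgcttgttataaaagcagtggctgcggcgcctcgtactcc
FOSB: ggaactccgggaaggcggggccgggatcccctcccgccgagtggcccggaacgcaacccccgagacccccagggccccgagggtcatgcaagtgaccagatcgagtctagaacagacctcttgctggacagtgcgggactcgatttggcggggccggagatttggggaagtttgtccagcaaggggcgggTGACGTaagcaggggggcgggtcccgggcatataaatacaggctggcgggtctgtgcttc
FOSL2: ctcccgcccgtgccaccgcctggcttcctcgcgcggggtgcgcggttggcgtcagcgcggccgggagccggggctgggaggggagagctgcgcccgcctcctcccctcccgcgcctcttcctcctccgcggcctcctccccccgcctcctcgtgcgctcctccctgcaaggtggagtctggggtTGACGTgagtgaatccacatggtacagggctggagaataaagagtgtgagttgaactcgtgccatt
JUN: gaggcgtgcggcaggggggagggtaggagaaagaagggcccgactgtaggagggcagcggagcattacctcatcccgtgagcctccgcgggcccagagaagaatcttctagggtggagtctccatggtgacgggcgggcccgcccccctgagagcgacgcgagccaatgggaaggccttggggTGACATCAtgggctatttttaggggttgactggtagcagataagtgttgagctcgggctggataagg
The windows are chr5:138465229-138465478 (+) for EGR1, chr14:75278578-75278827 (+) for FOS, chr19:45467746-45467995 (+) for FOSB, chr2:28392608-28392857 (+) for FOSL2 and chr1:58784048-58784297 (-) for JUN. FOS, FOSB and FOSL2 each carried 1 TGACGT, which began 64, 60 and 66 bases before the start. EGR1 carried that core at 136 and 67 bases and a CArG box at 105 and 83 bases before its start, and a match to the EGR1 site at 198 bases. JUN had no TGACGT and had TGACATCA at 67 bases before the start.

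Promoters of 8 of the 10 members were searched. FOSL1 had no entry, and EGR3, on chromosome 8, was left out, although the comparison set kept that chromosome. Of the 8 searched, 6 had TGACGT within 250 bases, against 8.62% of the 27305 genes held. A gene counts there once if any of its listed starts has a match. Those 6 included EGR2, at 1 of its 3 listed starts, and JUND. CArG boxes were present in this window in 2 of the 8 members, EGR1 and EGR2, against 1.44% of all genes. Bases further upstream were not searched, so a member without a match, such as FOS, may hold a CArG box there. TGACTCA, the consensus AP-1 site, was in 0 of 8, against 5.19% of all. The full palindrome TGACGTCA, which overlaps TGACGT, was in 1 of 8, JUND, against 2.03%; TGACATCA was in 1 of 8 against 2.91%, and GCGNGGGCG in 1 of 8 against 10.1%. The comparison set was not matched for GC content, the motifs were picked with these sequences in view, and a match describes letters in a window and not a bound site.

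**Figure D1:**
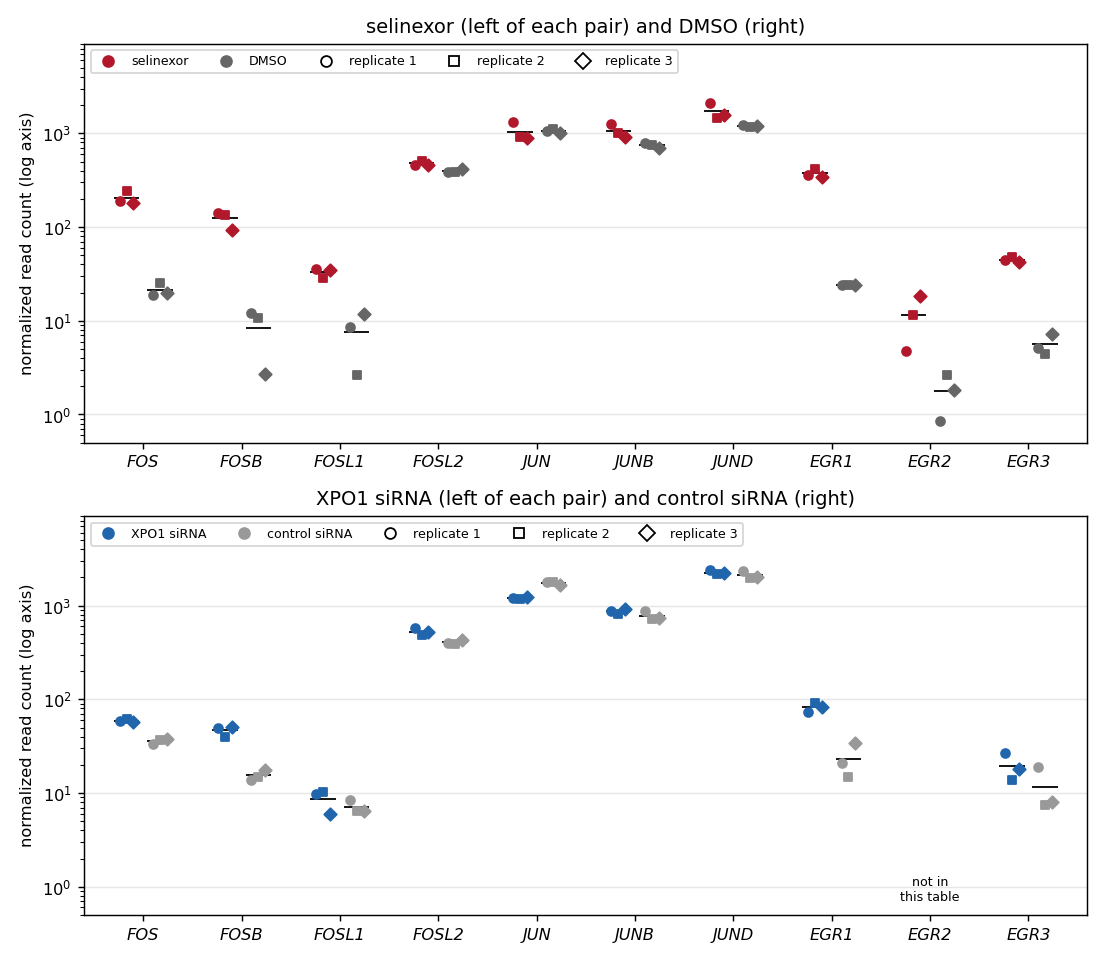
Normalized reads of each member in every library, on a log10 axis, with treated libraries left of their controls and the bar at the group mean; a gene not listed in a table has no points there. Every member except JUN lies above DMSO in all 3 selinexor libraries, and EGR1, FOS, FOSB and EGR3 lie furthest above it. JUN is the member whose XPO1 siRNA libraries all lie below control siRNA.

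Selinexor cells held far more RNA of FOS and FOSB, the 2 Fos genes best known as rapid response genes. In bulk RNA, more cells that make a transcript and more of it in each cell cannot be told apart. FOS (hg19 chr14:75745477-75748934, +) had 188, 244 and 180 normalized reads with selinexor, against 18.9, 25.6 and 19.9 with DMSO. Every selinexor library was above every DMSO library, and the rise was 9.13-fold on the log2(value + 1) scale (log2 3.19, SE 0.193, limma adjusted p = 7.09e-06). FOSB (hg19 chr19:45971253-45978438, +) had 143, 135 and 93.8 with selinexor, against 12, 10.6 and 2.71 with DMSO. The groups did not overlap, and the change was 3.90 on the log2 scale (SE 0.463, limma adjusted p = 0.000256), rank 44 of the 18128 genes tested when ordered by fold change.

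The 2 Fos-related genes moved less. FOSL1 (hg19 chr11:65659520-65668045, -), whose product lacks the strong activation domain of FOS, had 36.0, 28.5 and 34.9 normalized reads with selinexor, against 8.60, 2.65 and 11.7 with DMSO. It was low in every DMSO library and higher in all selinexor libraries, by 2.15 on the log2 scale (SE 0.471, limma adjusted p = 0.00579). FOSL2 (hg19 chr2:28615315-28640180, +) had 462, 512 and 458 with selinexor, against 388, 384 and 413 with DMSO, a change of 0.27 (SE 0.0958, limma adjusted p = 0.0441). The groups did not overlap, but that call is weak. The adjusted p was 0.138, 0.148 or 0.0928 without DMSO replicate 1, 2 or 3, 0.117 or 0.0611 without selinexor replicate 2 or 3, and 0.0517 without the intensity trend.

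EGR1 was the member with the smallest p. EGR1 (hg19 chr5:137801179-137805005, +) had 362, 420 and 340 normalized reads with selinexor, against 24.1, 23.8 and 24.4 with DMSO. The DMSO libraries were almost level, every selinexor library was far above them, and the rise was 14.9-fold (log2 3.90, SE 0.140, limma adjusted p = 5.47e-07). EGR3, a zinc finger factor that mice need to form muscle spindles, had 44.4, 47.6 and 42.6 with selinexor, against 5.16, 4.41 and 7.22 with DMSO. Its groups lay well apart, with a change of 2.82 (SE 0.293, limma adjusted p = 0.000127). EGR2 (hg19 chr10:64571756-64679661, -), known for Schwann cell myelination and as an early response gene in other cells, had 4.80, 11.6 and 18.5 with selinexor, against 0.860, 2.65 and 1.81 with DMSO. Its mean of 6.71 was below the minimum of 10 used for testing. Its summed reads were 32 with selinexor and 6 with DMSO, a ratio of 6.73 after scaling for depth (exact 95% interval 2.78 to 19.7, which covers counting error only).

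The Jun genes changed little beside FOS and EGR1: JUNB and JUND rose, and JUN did not pass. JUNB (hg19 chr19:12902310-12904125, +), which often restrains JUN, had 1262, 999 and 925 normalized reads with selinexor, against 791, 753 and 703 with DMSO. Its rise was 0.49 on the log2 scale (SE 0.126, limma adjusted p = 0.0117), with no overlap. JUND (hg19 chr19:18390563-18392433, -) had 2124, 1472 and 1568 with selinexor, against 1216, 1182 and 1199 with DMSO, a rise of 0.50 (SE 0.135, limma adjusted p = 0.0147). JUN (hg19 chr1:59246465-59249786, -), the founding member and main partner of FOS, had 1319, 911 and 902 with selinexor, against 1056, 1127 and 1016 with DMSO. Its selinexor libraries fell on both sides of the DMSO range, and its change of -0.05 (SE 0.149, limma adjusted p = 0.785) did not pass.

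For all 3 Jun genes selinexor replicate 1 was the highest of the selinexor libraries. It lay 0.31, 0.75 and 0.82 log2 units above the DMSO mean for JUN, JUNB and JUND. For JUN, replicates 2 and 3 lay at -0.23 and -0.24. Without selinexor replicate 1, JUN was called lower with selinexor (log2 -0.23, limma adjusted p = 0.00525), and JUNB and JUND stayed higher at 0.36 (adjusted p = 0.000480) and 0.34 (adjusted p = 0.000116). Without DMSO replicate 3 the adjusted p of JUNB was 0.0549, and without DMSO replicate 2 that of JUND was 0.0569. The transcripts of JUN, JUNB and JUND have 1 exon each and a GC content of 56.7%, 64.9% and 69.7%. JUNB and JUND lie above 96.1% and 99.5% of tested genes with a known GC content. With the trend over GC content removed, JUNB was at 0.14 (adjusted p = 0.113), JUND at -0.02 (adjusted p = 0.779) and FOSL2 at 0.23 (adjusted p = 0.0555), whereas EGR1, FOS, FOSB, FOSL1 and EGR3 kept their calls. The part of GC content in the JUNB and JUND changes was not tested further.

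**Figure D2:**
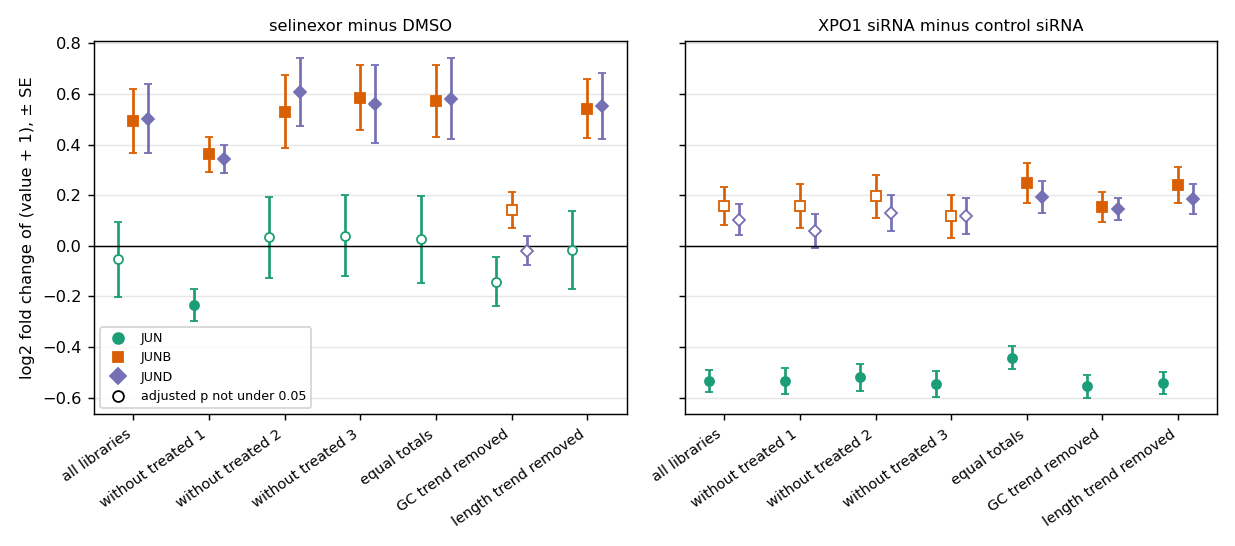
Log2 fold change of JUN, JUNB and JUND (± SE) with all libraries, with each treated library left out, and with equal totals or the GC or length trend removed, for selinexor minus DMSO and for XPO1 siRNA minus control siRNA; open symbols did not pass an adjusted p of 0.05. In the selinexor panel JUN is called lower without replicate 1 (-0.23) and the JUND change is -0.02 once the GC trend is removed, whereas JUN stays below 0 in all settings drawn for knockdown.

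Of the 10 members, 9 were tested with selinexor, and 8 of these were called higher and 0 lower, where 22.9% of all tested genes were called higher and 26.3% lower. FOSB, FOSL1 and EGR3 averaged under 10 with DMSO and were tested only because of their selinexor values, so that count is a description. Among the 6 tested members that averaged 10 or more with DMSO, JUN alone was not called. FOSB, EGR1, FOS, EGR3 and FOSL1 rose by at least 2 log2 units, as 2.02% of all tested genes did. The libraries of 8 of the 9 tested members did not overlap and were higher with selinexor, as were those of 28.8% of tested genes, and 0 were lower without overlap, as 32.9% were.

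After XPO1 knockdown EGR1, FOSB, FOS and FOSL2 rose and JUN fell. EGR1 had 73.5, 90.3 and 83.3 normalized reads with XPO1 siRNA, against 21.1, 14.9 and 33.8 with control siRNA. The control libraries spread widely but stayed below all knockdown libraries, and the rise was 3.61-fold (log2 1.85, SE 0.259, limma adjusted p = 4.00e-05). FOSB had 49.6, 40.04 and 51.2 with XPO1 siRNA, against 13.7, 14.9 and 17.7 with control siRNA, a rise of 1.54 (SE 0.237, limma adjusted p = 9.23e-05). FOS had 59.3, 61.1 and 57.1 with XPO1 siRNA, against 33.7, 37.2 and 37.9 with control siRNA, a rise of 0.69 (SE 0.175, limma adjusted p = 0.00415). Neither Fos gene overlapped between the groups, and the replicates of FOS were close in both.

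FOSL2 had 578, 488 and 517 with XPO1 siRNA, against 397, 393 and 426 with control siRNA. It rose by 0.38 (SE 0.0746, limma adjusted p = 0.000733), with no overlap. JUN had 1209, 1184 and 1227 with XPO1 siRNA, against 1794, 1767 and 1678 with control siRNA. All knockdown libraries were below all controls, and JUN fell by 0.53 on the log2 scale (SE 0.0441, limma adjusted p = 3.11e-07), with the smallest SE of the 8 members tested here.

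JUNB, JUND and EGR3 did not pass after knockdown, and FOSL1 was too low to test. JUNB had 866, 820 and 917 with XPO1 siRNA, against 883, 720 and 740 with control siRNA, and JUND had 2389, 2162 and 2203 against 2337, 1952 and 2013. Control siRNA replicate 1 was the highest control for both and lay inside the knockdown range. Their changes were 0.16 (limma adjusted p = 0.0930) and 0.10 (adjusted p = 0.180), and without that control library both were called higher, at 0.25 (adjusted p = 0.00517) and 0.18 (adjusted p = 0.00916). EGR3 had 26.6, 13.8 and 17.9 with XPO1 siRNA, against 19.0, 7.43 and 8.06 with control siRNA, a change of 0.78 (SE 0.399, limma adjusted p = 0.116). Its groups overlapped through the same control library, without which it was called higher at 1.18 (adjusted p = 0.0232). FOSL1 had 9.74, 10.2 and 5.95 with XPO1 siRNA, against 8.42, 6.37 and 6.45 with control siRNA. Its mean of 7.85 was too low for testing, and 30 reads against 22 gave a ratio of 1.28 (exact 95% interval 0.713 to 2.32, counting error only).

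Of the 8 members tested after knockdown, 4 were called higher, where 25.9% of all tested genes were, and 1 was called lower, where 28.6% were. With libraries scaled to equal totals, the split over all tested genes was 6057 higher and 3647 lower, in place of 4561 and 5042; the 4 members stayed higher and JUN stayed lower, and JUNB (0.25, adjusted p = 0.0184) and JUND (0.19, adjusted p = 0.0198) were also called higher. Both also passed with the GC trend removed (0.15, adjusted p = 0.0349; 0.14, adjusted p = 0.00889) and with the length trend removed (0.24, adjusted p = 0.0108; 0.18, adjusted p = 0.0140), which made 6 higher members in each case. Those 4 higher members were also the ones whose libraries did not overlap upward, as in 29.2% of all tested genes, and JUN was the 1 member lower without overlap, as 31.2% were.

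**Figure D3:**
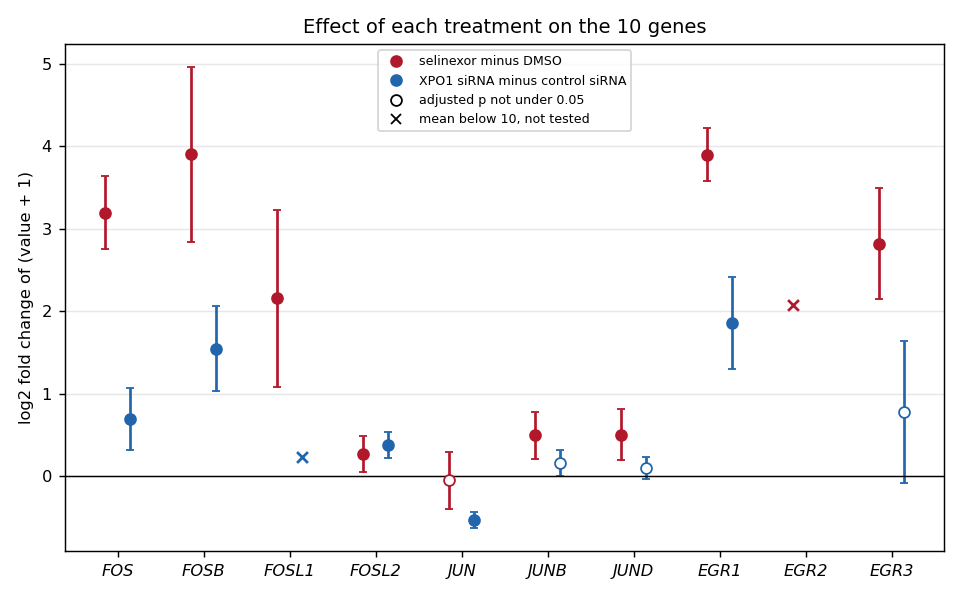
Log2 fold change of log2(value + 1) for each member (bars are 95% intervals), selinexor minus DMSO and XPO1 siRNA minus control siRNA; open circles did not pass an adjusted p of 0.05, and crosses mark members too low to test. The selinexor effects of EGR1, FOSB, FOS and EGR3 lie 2.04 to 2.50 log2 units above their XPO1 siRNA effects. FOSL2 is at 0.27 with selinexor and 0.38 after knockdown, and JUN, after knockdown, is the only member called lower.

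The selinexor effect was above the XPO1 siRNA effect for FOS, FOSB, EGR1, EGR3 and JUN; for JUN that meant a change near 0 with selinexor (-0.05) beside a fall after knockdown (-0.53). The time and the delivery also differed between the experiments and cannot be told apart from the agent. The selinexor effect minus the XPO1 siRNA effect was 2.50 for FOS (95% interval 1.99 to 3.00, limma adjusted p = 6.10e-06) and 2.35 for FOSB (1.18 to 3.53, adjusted p = 0.00551). It was 2.05 for EGR1 (1.35 to 2.74, adjusted p = 0.000412) and 2.04 for EGR3 (0.93 to 3.15, adjusted p = 0.00907). The intervals of these 4 genes overlap one another.

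For JUN the gap was 0.48 (0.13 to 0.83, limma adjusted p = 0.0399). That call held in 11 of 22 alternatives and is marginal: leaving out any 1 of the DMSO, XPO1 siRNA or control siRNA libraries gave an adjusted p of 0.0527 to 0.0903. Without selinexor replicate 1 the JUN gap was 0.30 (adjusted p = 0.00260). JUNB (0.34, -0.01 to 0.68, adjusted p = 0.122) and JUND (0.40, 0.05 to 0.75, adjusted p = 0.0766) did not pass. Without selinexor replicate 3 the JUNB gap passed (0.43, adjusted p = 0.0487), and without selinexor replicate 1 or 2 the JUND gap passed (0.24, adjusted p = 0.0369; 0.50, adjusted p = 0.0207). FOSL2 differed by -0.11, with an interval of -0.36 to 0.15, so a gap as large as that of FOS lies outside its interval. Of the 8 members tested, 5 had a selinexor effect above the XPO1 siRNA effect by this test, where 11.6% of 17332 tested genes did, and 0 had one below it, where 20.2% did. FOSB and EGR3 averaged under 10 with DMSO and were tested only because of their selinexor values, so that count is a description.

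Set per kilobase of transcript, so that genes can be ranked, the Jun genes led in all groups. With selinexor the means in normalized reads per kilobase were 924 for JUND, 584 for JUNB, 295 for JUN, 119 for EGR1, 94.6 for FOS, 71.1 for FOSL2, 32.8 for FOSB, 19.9 for FOSL1, 10.3 for EGR3 and 3.93 for EGR2. Neighbours in that order did not overlap, except EGR1 and FOS. With DMSO the order was JUND (644), JUNB (411), JUN (301), FOSL2 (58.9), FOS (9.94), EGR1 (7.68), FOSL1 (4.59), FOSB (2.24), EGR3 (1.29) and EGR2 (0.597), where FOSL1 overlapped FOSB and FOSB overlapped EGR3. EGR1 and FOS thus stood above FOSL2 with selinexor and below it with DMSO.

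With XPO1 siRNA JUND (1208), JUNB (477), JUN (341) and FOSL2 (78.6) led, followed by FOS (27.4) and EGR1 (26.2), which overlapped, and by FOSB (12.4), FOSL1 (5.17) and EGR3 (4.48), the last pair overlapping. With control siRNA JUND (1128) led, JUN (493) and JUNB (429) overlapped, and FOSL2 (60.4), FOS (16.8) and EGR1 (7.41) followed, with EGR1, FOSL1 (4.24), FOSB (4.09) and EGR3 (2.65) each overlapping the next. JUN was second in the control siRNA group alone.

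**Figure D4:**
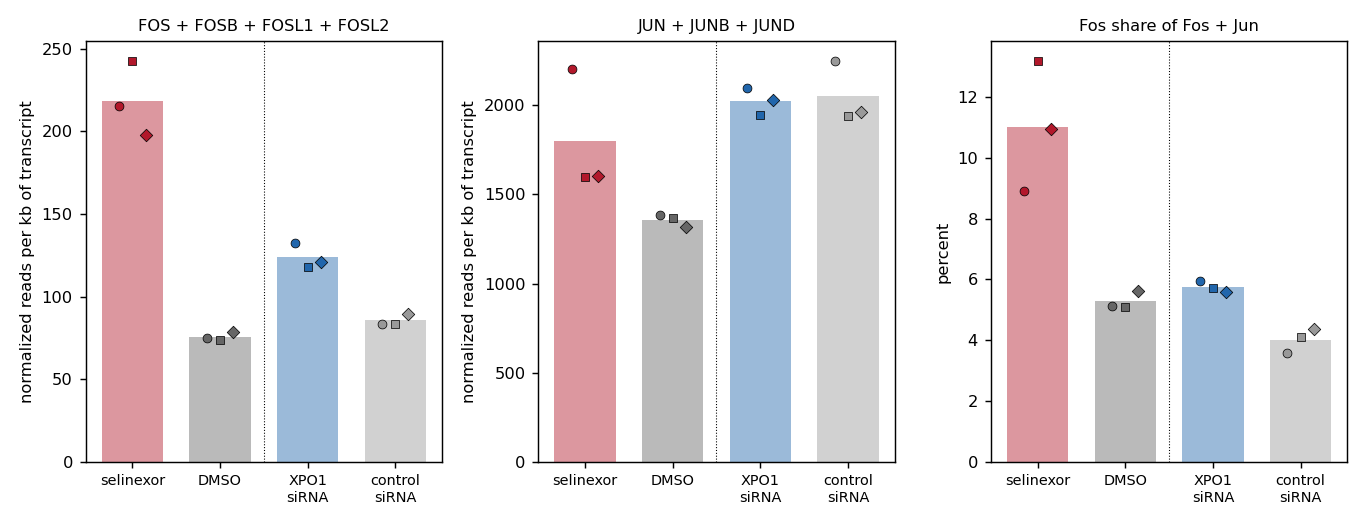
Summed normalized reads per kilobase of the 4 Fos genes and of the 3 Jun genes, and the Fos genes as a percent of both, with a point per library, bars at group means and treated groups left of their controls. The Fos sum and the Fos share (8.90% to 13.2% with selinexor against 5.10% to 5.63% with DMSO) are higher in both treated groups without overlap. The Jun sum is also higher with selinexor without overlap (1596 to 2206 against 1317 to 1386 with DMSO) and overlaps after knockdown. Selinexor replicate 1 has the highest Jun sum of its group, and the GC trend was not removed from these sums.

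The Fos genes summed to 198 to 242 normalized reads per kilobase in selinexor libraries, against 73.5 to 78.6 in DMSO libraries. FOSL2 held 31.5% to 34.6% of that sum with selinexor and 77.2% to 78.4% with DMSO, so FOSL2 held most of the Fos RNA in DMSO cells, and FOS was above it in all selinexor libraries. After knockdown the Fos sum was 118 to 133 with XPO1 siRNA and 83.5 to 89.5 with control siRNA, with FOSL2 at 61.7% to 64.98% and 70.1% to 70.9%. Fos genes as a share of Fos plus Jun RNA were 8.90% to 13.2% with selinexor and 5.10% to 5.63% with DMSO, and 5.60% to 5.94% with XPO1 siRNA and 3.58% to 4.37% with control siRNA. None of these ranges overlapped between a treated group and its control.

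Within the Jun family the share of JUN was lower in both treated groups. It was 15.9% to 16.9% with selinexor and 21.5% to 23.3% with DMSO, and 16.3% to 17.2% with XPO1 siRNA and 22.6% to 25.7% with control siRNA. With selinexor JUN itself did not pass, and with the GC trend removed JUNB was at 0.14 and JUND at -0.02, as given above. These shares are of RNA and not of protein, and lengths are those of 1 annotated transcript per gene.

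By distance over the 12 libraries, each set against its own control mean, the nearest of 14066 other genes to FOS were TCP11L2 (root mean square distance 0.241 log2 units) and CPM (0.294). For FOSB they were TNFRSF14 (0.240) and FAM19A2 (0.426), for EGR1 FAM19A2 (0.298) and KCNC4 (0.359), and for EGR3 DUOX2 (0.306) and OSR1 (0.331). TCP11L2 changed by 3.16 with selinexor and 1.05 with knockdown, beside 3.19 and 0.69 for FOS. FAM19A2 was nearest or second nearest to both FOSB and EGR1. Among members, EGR1 lay 0.507 from FOSB and 0.724 from FOS, and EGR3 lay 0.465 from FOS.

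The members with small changes had closer neighbours. For FOSL2 they were FAM53C (0.0498) and KIAA0895L (0.0551), for JUN BLVRA (0.0551) and PGK1P2 (0.0630), for JUNB RNF123 (0.0589) and USP4 (0.0674), and for JUND RNF123 (0.0412) and PIK3R2 (0.0449). JUNB and JUND lay 0.0756 from each other, closer than to any other member, and 0.446 and 0.428 from JUN. A small distance is easier to reach where the changes are small, so distances are not comparable between members.

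The other genes of the pathway did not move as a block. Over all tested genes 22.9% rose and 26.3% fell with selinexor, and 25.9% rose and 28.6% fell after knockdown. These shares are the ones to set beside every list count below. Among 15 tested dimer partners of AP-1 (small Maf, ATF and CEBP genes), 5 rose and 5 fell with selinexor, with a median of 0.05, and 4 rose and 5 fell after knockdown, with a median of -0.02; the medians of all tested genes were -0.01 and 0.00. With 1 library left out the selinexor counts were 3 to 7 higher (3 without DMSO replicate 2 or 3) and 3 to 5 lower (3 without DMSO replicate 2 or selinexor replicate 3). MAFF, a small Maf protein, averaged 231 ± 15.9 with selinexor and 84.0 ± 3.21 with DMSO (log2 1.45, limma adjusted p = 3.89e-05), and 210 ± 20.6 with XPO1 siRNA and 114 ± 5.80 with control siRNA (0.88, adjusted p = 1.45e-05). JDP2, a repressor that pairs with Jun proteins, averaged 97.1 ± 15.1 with selinexor and 295 ± 26.0 with DMSO (-1.60, adjusted p = 6.66e-05). It also fell after knockdown, by 0.69 (adjusted p = 0.000138).

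ATF3 and CEBPG, stress-linked basic leucine zipper genes, behaved differently from each other. CEBPG fell in both, by 1.27 with selinexor (limma adjusted p = 3.13e-05) and by 0.49 after knockdown (adjusted p = 1.36e-07). ATF3 averaged 320 ± 10.3 with selinexor and 211 ± 4.32 with DMSO, a rise of 0.60 (adjusted p = 0.00134). It averaged 258 ± 6.78 with XPO1 siRNA and 412 ± 1.91 with control siRNA, a change of -0.67 (adjusted p = 2.89e-06). The ATF3 effects differed by 1.27 (adjusted p = 1.53e-06).

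The listed EGR co-repressors and GC-box factors moved in both directions. Of 6 tested, 3 rose and 3 fell with selinexor (median -0.14), and 2 rose and 3 fell after knockdown (median -0.15). The count that rose was 1 with selinexor without DMSO replicate 2 or 3, and 1 after knockdown when either XPO1 siRNA replicate 3 or control siRNA replicate 2 was left out. NAB2, itself a known EGR1 target, averaged 1800 ± 145 with selinexor and 1424 ± 58.7 with DMSO (log2 0.34, limma adjusted p = 0.0149), and 1809 ± 23.5 with XPO1 siRNA and 1376 ± 31.8 with control siRNA (0.39, adjusted p = 2.74e-06). Its selinexor call was lost without DMSO replicate 2 or 3 (adjusted p = 0.0509 and 0.0808) and with the GC trend removed (0.07, adjusted p = 0.536). The other co-repressor, NAB1, fell by 0.63 with selinexor (adjusted p = 0.00108) and by 0.15 after knockdown (adjusted p = 0.00466; at equal totals -0.06, adjusted p = 0.209). SP1 and SP3, which bind GC boxes that can overlap EGR sites, fell by 0.71 (adjusted p = 0.000276) and 0.88 (adjusted p = 0.000886) with selinexor. After knockdown they fell by 0.32 (adjusted p = 3.72e-06) and 0.25 (adjusted p = 2.76e-05).

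The listed factors that act on these promoters were SRF, CREB1 and their partners, with STAT3, TCF3 and the MEF2 genes. Of 19 tested, 7 rose and 2 fell with selinexor (median 0.08), and 9 rose and 3 fell after knockdown (median 0.12), where 22.9% and 26.3% of all tested genes rose and fell with selinexor and 25.9% and 28.6% after knockdown. Without selinexor replicate 1 the selinexor counts were 9 higher and 5 lower, and 1 fell without selinexor replicate 3 or any 1 of the DMSO libraries. SRF did not pass in either comparison, at 0.28 with selinexor (limma adjusted p = 0.0509) and 0.12 after knockdown (adjusted p = 0.0828). CREB1, which binds the TGACGT core printed above, averaged 1894 ± 240 with selinexor and 3292 ± 71.2 with DMSO, a change of -0.81 (adjusted p = 0.000413), and fell by 0.16 after knockdown (adjusted p = 0.00329; at equal totals -0.07, adjusted p = 0.157). Its co-activator CRTC1 rose by 0.89 with selinexor (adjusted p = 0.00112) and 0.60 after knockdown (adjusted p = 2.62e-05).

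STAT3, which activates FOS after cytokine signals, rose by 0.63 with selinexor (limma adjusted p = 0.000339) and 0.65 after knockdown (adjusted p = 1.99e-09). MEF2D, a factor linked to JUN and to neuronal activity, rose by 1.08 with selinexor (adjusted p = 0.000401) and by 0.34 after knockdown (adjusted p = 0.00103). ELK3, a ternary complex factor that can repress FOS, fell by 0.42 after knockdown (adjusted p = 1.41e-05).

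Among 23 tested MAP kinases and their regulators, 6 rose and 7 fell with selinexor (median 0.05), and 8 rose and 7 fell after knockdown (median -0.02). With selinexor 9 rose and 8 fell without selinexor replicate 1, 4 fell without DMSO replicate 3, and 13 fell with the GC trend removed. GADD45A, a stress sensor that acts on p38 and JNK signalling, averaged 3840 ± 571 with selinexor and 837 ± 69.7 with DMSO (log2 2.19, limma adjusted p = 4.51e-06), and rose by 0.80 after knockdown (adjusted p = 1.55e-09). MAP3K5, a kinase upstream of JNK, fell by 1.60 with selinexor (adjusted p = 0.000185), and RPS6KA5, a kinase of CREB1 and histone H3, rose by 0.79 (adjusted p = 0.000455). RPS6KA5 also rose after knockdown, by 0.42 (adjusted p = 8.74e-05), and MAP3K5 did not pass there (-0.23, adjusted p = 0.268). After knockdown the JNK genes MAPK10 and MAPK9 moved apart, with a rise of 0.59 (adjusted p = 7.15e-08) and a fall of 0.52 (adjusted p = 1.28e-06). With selinexor MAPK10 also rose, by 0.41 (adjusted p = 0.0062), and MAPK9 also fell, by 0.48 (adjusted p = 0.00168).

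Genes for the turnover of AP-1 mRNA and protein included ZFP36 and FBXW7. Of 16 tested, 2 rose and 7 fell with selinexor (median -0.19), and 2 rose and 6 fell after knockdown (median -0.09). With 1 library left out 4 to 9 fell with selinexor (4 without any 1 of the DMSO libraries, 9 without selinexor replicate 1) and 4 to 7 after knockdown, and with equal totals 4 rose and 2 fell after knockdown. Those that rose with selinexor were ZFP36 and FBXW7. ZFP36, which destabilizes AU-rich mRNAs such as that of FOS and is itself an early response gene, averaged 65.8 ± 14.98 with selinexor and 20.3 ± 4.72 with DMSO (log2 1.65, limma adjusted p = 0.00114). After knockdown ZFP36 did not pass (0.50, adjusted p = 0.143), and its groups overlapped. FBXW7, the ubiquitin ligase subunit that marks JUN protein for degradation, averaged 3509 ± 409 with selinexor and 1445 ± 28.6 with DMSO (1.27, adjusted p = 2.77e-05), and 2317 ± 29.8 with XPO1 siRNA and 1404 ± 80.9 with control siRNA (0.72, adjusted p = 2.89e-08). DET1, part of another ligase for JUN, fell by 0.92 with selinexor (adjusted p = 0.000969) and by 0.25 after knockdown (adjusted p = 0.00235). USP28, which opposes FBXW7, fell by 0.59 with selinexor (adjusted p = 0.00294) and by 0.39 after knockdown (adjusted p = 7.08e-05). TRIB1, a scaffold of the COP1 ligase, rose by 0.31 after knockdown (adjusted p = 0.000553).

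**Figure D5:**
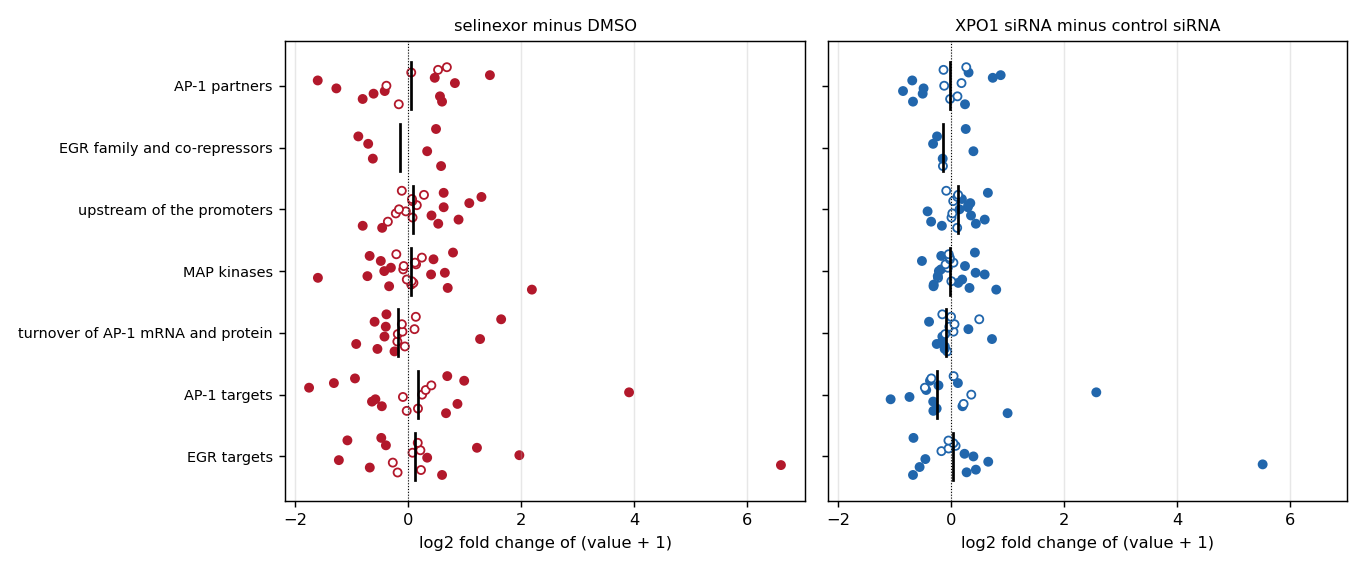
Log2 fold change of each tested gene in the 7 pathway lists, selinexor minus DMSO and XPO1 siRNA minus control siRNA; filled points passed an adjusted p of 0.05, and the bar is the list's median. Medians stay between -0.26 and 0.17, while LIF and GDF15 stand far to the right in both panels. GDF15 in both panels and LIF in the selinexor panel averaged under 10 in the controls.

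Genes described elsewhere as AP-1 targets went both ways. The list held 30 symbols, of which 18 had values in each experiment. MMP1, MMP3, MMP9, MMP10, MMP13, TIMP1, IL6 and CXCL8 had none in either and could not be examined. Of 17 tested, 5 rose and 6 fell with selinexor (median 0.17), and 4 rose and 8 fell after knockdown (median -0.26). After knockdown 5 fell with equal totals, and 5 to 7 fell with 1 library left out (5 without XPO1 siRNA replicate 1 or without control siRNA replicate 3). LIF, a cytokine gene, averaged 130 ± 21.6 with selinexor and 7.98 ± 3.26 with DMSO (log2 3.91, limma adjusted p = 1.94e-05), and 101 ± 15.3 with XPO1 siRNA and 16.7 ± 6.02 with control siRNA (2.57, adjusted p = 1.36e-06). LIF averaged under 10 with DMSO and was tested there only because of its selinexor values. Its selinexor effect exceeded its knockdown effect by 1.34 (adjusted p = 0.0225). CCND1, cyclin D1, averaged 39790 ± 457 with XPO1 siRNA and 19896 ± 391 with control siRNA (adjusted p = 2.13e-11). It also rose with selinexor, by 0.67 (adjusted p = 0.000213). S100A6 rose by 0.99 with selinexor (adjusted p = 0.000152) and by 0.12 after knockdown (adjusted p = 0.0306). NQO1, which NRF2 also controls, fell by 1.75 with selinexor (adjusted p = 8.31e-05) and by 0.44 after knockdown (adjusted p = 0.000242). HMOX1 fell by 0.58 with selinexor (adjusted p = 0.00937) and by 1.07 after knockdown (adjusted p = 5.08e-06).

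Of the EGR targets, 5 of 16 tested rose and 5 fell with selinexor (median 0.12), and 6 of 15 rose and 4 fell after knockdown (median 0.04). With 1 library left out, 4 to 7 rose and 4 to 7 fell with selinexor. GDF15, a stress cytokine gene that p53 also controls, averaged 325 ± 56.4 with selinexor and 2.63 ± 1.76 with DMSO (log2 6.60, limma adjusted p = 5.02e-06). It averaged 91.4 ± 8.54 with XPO1 siRNA and 1.24 ± 1.11 with control siRNA (5.52, adjusted p = 1.61e-07). GDF15 averaged under 10 in both control groups and was tested only because of its treated values, so its calls are descriptions. TOE1 fell by 1.08 with selinexor (adjusted p = 7.27e-05) and did not pass after knockdown (-0.05, adjusted p = 0.494). FN1, fibronectin, fell by 0.56 after knockdown (adjusted p = 6.03e-07).

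Markers of the neuroblastoma cell states moved beside the members. Over all tested genes 22.9% rose and 26.3% fell with selinexor, and 25.9% rose and 28.6% fell after knockdown. These shares are the ones to set beside every marker count below. Of 12 tested adrenergic markers 8 rose and 0 fell in each comparison, with medians of 0.43 with selinexor and 0.38 after knockdown. With selinexor 1 fell without selinexor replicate 1, and 2 fell with the GC trend removed. ISL1 and CHGA rose by 0.92 (limma adjusted p = 4.37e-05) and 1.02 (adjusted p = 0.000440) with selinexor, and by 1.13 (adjusted p = 4.70e-11) and 0.92 (adjusted p = 2.89e-10) after knockdown. GATA3 rose by 0.91 with selinexor (adjusted p = 0.000797) and by 0.50 after knockdown (adjusted p = 6.42e-07). TBX2 rose by 0.96 after knockdown (adjusted p = 5.08e-10) and did not pass with selinexor (0.21, adjusted p = 0.203).

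Of 11 tested mesenchymal markers 1 rose and 5 fell with selinexor (median -0.37), and 0 rose and 6 fell after knockdown (median -0.48), where 1 rose without control siRNA replicate 2 and 2 rose with equal totals. YAP1 fell by 1.57 with selinexor (limma adjusted p = 8.23e-05) and by 0.92 after knockdown (adjusted p = 1.06e-07). FN1 fell by 0.68 with selinexor (adjusted p = 0.000343). VIM fell by 0.39 with selinexor (adjusted p = 0.00455) and by 0.48 after knockdown (adjusted p = 2.80e-08). The 1 that rose with selinexor was IRF1 (0.71, adjusted p = 0.00615), which did not pass after knockdown (0.31, adjusted p = 0.0589). FOSL1 and FOSL2 are counted among that state's factors. FOSL2 was called higher in both comparisons, but weakly with selinexor (0.27, limma adjusted p = 0.0441), as given above. FOSL1 was higher with selinexor (2.15, adjusted p = 0.00579), where only its selinexor values made it testable. After knockdown FOSL1 was too low to test. The part of cell state in the members' changes was not tested.

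Markers of leukocytes, endothelial cells and Schwann cells were low, and none of PTPRC, CD68, CD3E, PECAM1 or S100B is listed in either table. The 8 listed markers summed to 306 to 350 normalized reads with selinexor and 153 to 172 with DMSO, and to 274 to 285 with XPO1 siRNA and 173 to 222 with control siRNA. Of 8 tested with selinexor, 3 rose and 0 fell, and of 4 tested after knockdown, 2 rose and 0 fell (1 rose without replicate 1 or 2 of either knockdown group). ERBB3, a receptor of Schwann cells and their precursors, averaged 86.1 ± 13.4 with selinexor and 8.84 ± 4.09 with DMSO (log2 3.22, limma adjusted p = 0.000120). Its DMSO mean was under 10, and it was tested there only because of its selinexor values. CDH5 rose by 1.04 with selinexor (adjusted p = 0.00365) and 1.17 after knockdown (adjusted p = 6.08e-05). These stand beside EGR2, a Schwann cell factor, and their part in its values was not tested.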

How the data were processed

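Total RNA libraries of IMR5 cells were prepared with a stranded kit, per the labels' protocols. The submitters' processing notes name STAR 2.7.3a, Partek, DESeq2 and build hg19; no source used here gives the annotation or says whether counting used strand. The deposited signal is gene counts that the authors scaled by 1 factor for each library, each table on its own, so levels were compared inside 1 table and only effects were compared across tables. Sample titles gave groups and replicate numbers. The knockdown table's 3 unmatched columns of per-sample values were left out, and 25 symbols stored as dates were recovered through their coordinates. Low values (0.3 to 60) fell on whole multiples of 1 read's worth, within 0.02, in 61.8% to 66.6% of cases (4% by chance). Whole reads were thus known for only part of the genes, and no count test was run. All values of EGR1, EGR2, EGR3, FOS, FOSB, FOSL1 and FOSL2 were whole, and their exact 95% intervals use these reads. Chi-square per gene between replicates was 2.85 to 55.3, above sampling noise.

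Tests were two-sided and used limma 3.58.1 in R 4.3.3 with an intensity trend, on log2(value + 1), which understates changes of low genes. A gene needed a mean of at least 10 in its table's 6 libraries. Genes that averaged under 10 in the control group passed this only through their treated values, so their calls are descriptions. Benjamini-Hochberg adjustment ran over all tested genes, with a threshold of 0.05. The difference of effects came from 1 fit of 4 group means to all 12 libraries. The steps were tested on simulated data. GENCODE 29 gave transcript length, exons and GC content by symbol, the last for 81.5% of genes tested with selinexor and 82.6% after knockdown. Promoters came from RefSeq. Python 3.11.15 with pandas 2.3.3, scipy 1.17.1, numpy 2.4.6 and matplotlib 3.10.9 made the other results.

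The members and the gene lists were chosen with earlier results of these data known, so no list is independent support. Named genes were the members, XPO1, the 2 nearest genes of each member (smallest root mean square distance; clone, locus-numbered and small RNA genes left out), and up to 3 called genes of each list and comparison with the smallest adjusted p. A few genes that this rule names are not reported here. SRF, IRF1 and the second comparison's values of such genes were added after their values were seen. Alternatives were other pseudocounts (0.5 and 5), no filter or a mean of at least 50, no trend, equal totals, a replicate block and each library left out; removing the trend over GC content or length was chosen after seeing the data.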

Additional observations from a re-analysis of the deposited data

Results flagged for a closer look

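For 5 members the selinexor effect and the XPO1 siRNA effect differed by limma's test of the difference itself, fitted over all 12 libraries. The difference, selinexor minus XPO1 siRNA on the log2(value + 1) scale, was 2.50 for FOS (adjusted p = 6.10e-06), with effects of 3.19 and 0.69, and 2.35 for FOSB (adjusted p = 0.00551), with effects of 3.90 and 1.54. It was 2.05 for EGR1 (adjusted p = 0.000412), with effects of 3.90 and 1.85, and 2.04 for EGR3 (adjusted p = 0.00907), with effects of 2.82 and 0.78. For these 4 genes every selinexor library was above every DMSO library, and the difference kept its sign and its call in all 22 alternatives run for EGR1 and 21 run for each of FOS, FOSB and EGR3. For JUN it was 0.48 (adjusted p = 0.0399), with effects of -0.05 and -0.53, and the adjusted p ran from 0.00260 to 0.0903 over its alternatives. FOSB and EGR3 averaged under 10 with DMSO and were tested only because of their selinexor values.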

How the results depend on the processing

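Over the members' tests, 398 of 440 values under alternatives kept their direction and their side of the threshold, 14 passed it newly, 22 lost it and 6 changed sign. The sign changes were those of JUN with selinexor (0.0251 at equal totals, and -0.233 to 0.0407 with libraries left out, above 0 without selinexor replicate 2 or 3) and, with the GC trend removed, of JUND with selinexor (-0.0199) and of the differences for JUNB (-0.0108) and JUND (-0.166). XPO1 with selinexor was 0.28 with the GC trend removed and 0.25 without selinexor replicate 1, both past the threshold, and ran from -0.0188 to 0.248 with libraries left out; with XPO1 siRNA it ran from -2.12 to -2.10. With the GC trend removed 5 members were called higher with selinexor. With libraries left out, 6 to 8 were called higher and 0 to 1 lower with selinexor, 4 to 7 higher and 1 lower after knockdown, and 4 to 6 had a selinexor effect above the XPO1 siRNA effect. A minimum mean of 50 tests fewer members, and left 2 higher after knockdown and 2 with a selinexor effect above the XPO1 siRNA effect. Over all genes, leaving out libraries gave 3069 to 5048 higher and 3471 to 6065 lower with selinexor, 3962 to 4345 and 4466 to 4856 after knockdown, and 1551 to 2865 and 2764 to 4769 for the difference. Other named genes that changed sign were ELK3 with selinexor (0.0364 at equal totals, 0.0839 with the GC trend removed, -0.0805 to 0.0284 with libraries left out), TBX2 with selinexor (-0.20 with the GC trend removed) and TOE1 after knockdown (0.0432 at equal totals); the cause was not tested.

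Same-numbered libraries did not deviate together (correlations of -0.04 to 0.12 in the selinexor table and -0.10 to -0.02 in the knockdown table), so the numbers were not read as pairs. With the replicate number as a block, 3991 genes were higher and 4680 lower with selinexor, 4439 and 4882 after knockdown, and 1801 and 3272 for the difference; FOSL2 with selinexor had an adjusted p of 0.0866 and the JUND difference one of 0.0485, and no other member's call changed. Depth limits EGR2 and FOSL1 after knockdown most, with 6 to 32 reads per group.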
